A study of Mus musculus with 8 samples.

Results

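The lipid-associated macrophages of obese fat are known by a set of genes for lipid sensing, lipid uptake and lysosomal breakdown. Here 10 of these genes were examined: Trem2, Cd9, Itgax, Lpl, Fabp5, Lipa, Ctsk, Gpnmb, Lgals3 and Spp1. They were found by gene symbol among the 54532 genes of the count table, where each had 1 row, and the rule uses gene names only. All 10 genes passed the filter on low counts and were among the 15963 genes tested.

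Lipid-associated macrophages gather around dying adipocytes in crown-like structures (CLSs), where they take up released lipid. The receptor TREM2 binds lipids and signals through the adaptor TYROBP and the kinase SYK, and macrophages that lack it fail to build the full program. Downstream of uptake, fatty acids are carried by binding proteins, and lipoprotein or cell-derived esters are cut by acid lipase in the lysosome. Several of these genes are also used by other cells of fat, so that in bulk RNA none of them marks the macrophages alone.

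RNA was sequenced from the stromal vascular fraction (SVF), the cells that sediment after collagenase digestion while the adipocytes float, of 1 gonadal white adipose tissue (WAT) pad per mouse. The mice were male C57BL/6J animals without a transgene, fed a high-fat diet (HFD, 60% of calories from fat) for 12 weeks (from 6 weeks of age by the series' design text, although the methods name older mice), and all then changed to a normal chow diet (NCD, 16% of calories from fat). During the 6 weeks on NCD each mouse got 2 mg/kg, at intervals of 2 weeks, of either an isotype control antibody (IgG1k) or the anti-BAFF antibody Sandy-2, which neutralizes a survival factor of B cells, and tissue was taken at week 18. Libraries of 4 control Ab mice (mice 1, 2, 6 and 9) and 4 anti-BAFF Ab mice (mice 5, 7, 8 and 10) were compared, with no lean or HFD-only mice among them, so the level of these genes before the diet change is not given by these data. The comparison asks whether BAFF neutralization during weight loss went with a change in this macrophage program.

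Totals were 13562340 to 18548024 counts per mouse, and the 3 counts that an observed count of 0 still allows amounted to 0.165 to 0.219 CPM (counts scaled to the library size, here after TMM), which covers counting error only. As a check of the treatment, 8 of 8 B cell genes were lower with anti-BAFF Ab at an unadjusted p of 0.05, and Jchain, Ighm and Igkc were 3 of the 9 genes that edgeR called over the whole table (Ighm log2 fold change -2.36, adjusted p = 0.0448). Macrophage RNA was abundant in every mouse: Lyz2 averaged 5209 CPM in both groups and Mpeg1 1184 ± 295 and 1262 ± 103 CPM (SD, n = 4 per group), and none of the 12 general macrophage genes was at 0. Some libraries stood apart. Control mouse 2 and anti-BAFF mouse 7 carried the most epididymis RNA (2055 and 1922 CPM summed over 10 genes, against 20.4 to 690.4 CPM in the other mice, with Lcn9 at 0 in all). Anti-BAFF mouse 5 had the most neutrophil RNA (280 CPM summed over 8 genes, against 56.6 to 89.2 CPM). Control mouse 1 had the highest value of all 8 mice for 26.7% of the genes tested. Fold changes of the members are given with and without these mice.

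No lipid-associated macrophage gene passed the test for a difference between the treatments. Of the 10 genes, 0 were called at an adjusted p of 0.05 by edgeR's quasi-likelihood test, where 0.0564% of all genes tested were called, and 0 reached an unadjusted p of 0.05, where 1.9% of all genes did. The 2 groups overlapped for all 10 genes, as they did for all but 1.48% of the genes tested. The log2 fold change (anti-BAFF Ab over control Ab) was above 0 for 9 genes and below 0 for Itgax. Of all 15963 genes tested, 8214 were above 0. The median was 0.06 over the 10 genes and 0.0041 over all genes tested. Leaving Spp1 aside, the 95% intervals of the 9 other genes lay between a fold of 0.692 (the lower bound of Gpnmb) and 1.48 (the upper bound of Lipa and Ctsk). Together the 10 genes took 9892 ± 2894 CPM with control Ab and 10220 ± 1043 CPM with anti-BAFF Ab (SD, n = 4 per group). In bulk RNA, a change in the number of such macrophages and a change in the RNA of each cannot be told apart.

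**Figure D1:**
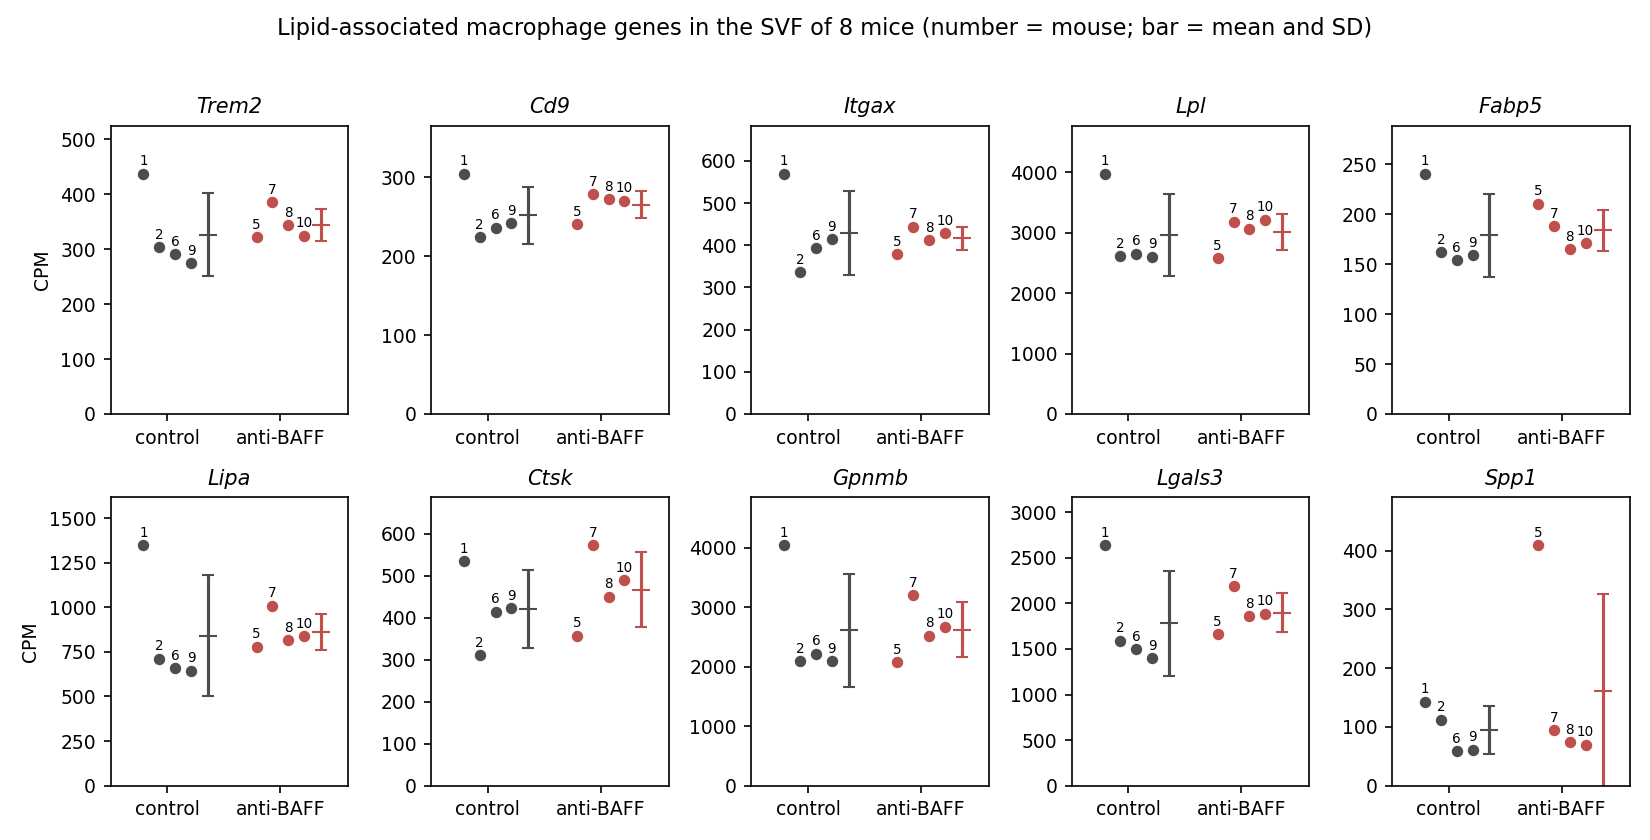
CPM of each of the 10 genes in each mouse, on a separate axis from 0 for every gene. Points are mice, labelled by number, and the bars beside them are the mean and SD of the 4 mice of a group (the lower bar of Spp1 with anti-BAFF Ab runs below 0 and is not drawn there). Control mouse 1 is the highest control mouse in all 10 panels, and Spp1 is far higher in anti-BAFF mouse 5 (409 CPM) than in any other mouse.

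Among the surface genes, Trem2 (ENSMUSG00000023992), which codes for the lipid receptor itself, lies on chromosome 17 (48346401 to 48354147, mm10, the build given in the submitters' processing notes). It was at 438, 303, 291 and 275 CPM in control mice 1, 2, 6 and 9, and at 322, 386, 344 and 325 CPM in anti-BAFF mice 5, 7, 8 and 10. Control mouse 1 was above every anti-BAFF mouse and the 3 other control mice were below every anti-BAFF mouse. The log2 fold change was 0.07 (SE 0.15, 95% interval -0.27 to 0.41, edgeR adjusted p = 1).

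Cd9 codes for a tetraspanin, a membrane organizer used with Trem2 to sort these macrophages, and lies on chromosome 6 (125460266 to 125494791). Its highest mouse was 1.36 times its lowest, the smallest ratio of the 10 genes. It was at 304, 224, 236 and 242 CPM in the control mice and 240, 278, 272 and 270 CPM in the anti-BAFF mice, in the order of mice used above and below. Its interval was also the narrowest, from -0.17 to 0.32 around a log2 fold change of 0.08, so that a fold outside 0.888 to 1.25 lies beyond it. Itgax, which codes for the integrin CD11c of inflammatory macrophages and dendritic cells, lies on chromosome 7 (128129547 to 128150657). It was at 570, 336, 394 and 414 CPM with control Ab and at 380, 444, 413 and 429 CPM with anti-BAFF Ab. Its 4 anti-BAFF values fell inside the range of the control values (log2 fold change -0.04, SE 0.15, edgeR adjusted p = 1). Dendritic cell genes, which accompany Itgax in other cells, summed to 239 to 303 CPM over 8 genes in the control mice and 204 to 288 CPM in the anti-BAFF mice (difference of mean log2 CPM -0.11, two-sided exact permutation p = 0.286).

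Of the genes for uptake and carriage of lipid, Lpl codes for lipoprotein lipase, which frees fatty acids from circulating triglycerides, and lies on chromosome 8 (68880491 to 68907448). Its counts were 3976, 2610, 2655 and 2604 CPM in the control mice and 2581, 3182, 3064 and 3213 CPM in the anti-BAFF mice. The mice fell into 3 levels, with control mouse 1 on top, anti-BAFF mice 7, 8 and 10 between, and the 3 other control mice together with anti-BAFF mouse 5 at the bottom. Its log2 fold change was 0.02 (SE 0.16, interval -0.34 to 0.39). Adipocytes also make Lpl, and the adipocyte list of 8 genes, Cidec and Plin1 highest among them, summed to 42.5 to 76.1 CPM with control Ab and 59.4 to 77.9 CPM with anti-BAFF Ab, with none at 0. This list was lowest in control mouse 1, the mouse with the most Lpl. A list of 8 fibroblast and progenitor genes summed to 12610 CPM in control mouse 1 and to 10130 to 12660 CPM in the other mice. As a mean log2 CPM it was at 8.87, against 9.03 to 9.32 in the others. The part of any cell type in the Lpl values was not tested.

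Fabp5, a fatty acid binding protein of macrophages and endothelium, lies on chromosome 3 (10012548 to 10016607). It was at 241, 162, 154 and 159 CPM with control Ab and at 211, 188, 165 and 171 CPM with anti-BAFF Ab. Unlike the other genes except Spp1, it was highest of its group in anti-BAFF mouse 5. The log2 fold change was 0.04 (SE 0.15, interval -0.31 to 0.39).

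In the lysosomal and matrix group, Lipa codes for lysosomal acid lipase, which cuts cholesteryl esters and triglycerides, and lies on chromosome 19 (34492318 to 34527474). Control mice had 1347, 712, 660 and 644 CPM and anti-BAFF mice 779, 1009, 817 and 838 CPM. Every anti-BAFF mouse was thus above control mice 2, 6 and 9 and below control mouse 1 (log2 fold change 0.03, SE 0.24, edgeR adjusted p = 1). Lgals3 codes for galectin-3 (Mac2), a sugar-binding protein used to stain macrophages of the CLS, and lies on chromosome 14 (47367751 to 47386160). It had the same arrangement, with 2636, 1592, 1495 and 1397 CPM against 1661, 2187, 1859 and 1887 CPM (log2 fold change 0.09, SE 0.20).

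Gpnmb, a glycoprotein of the endosomes and lysosomes of foamy cells, lies on chromosome 6 (49036546 to 49070929). Its values were 4038, 2095, 2216 and 2093 CPM with control Ab and 2078, 3200, 2521 and 2673 CPM with anti-BAFF Ab. The group means of 2611 ± 954 and 2618 ± 463 CPM (SD, n = 4 per group) were almost equal although 3 of the anti-BAFF mice were above 3 of the control mice, since control mouse 1 alone was far above the rest. Ctsk codes for cathepsin K, a collagen-degrading protease best known from osteoclasts, and lies on chromosome 3 (95499256 to 95509362). It was at 536, 310, 415 and 422 CPM against 358, 573, 450 and 489 CPM (log2 fold change 0.15, SE 0.18, interval -0.27 to 0.57). This was the 1 gene of the 10 that was highest in anti-BAFF mouse 7. Of 4 osteoclast genes, Calcr averaged 0.0604 CPM, below the level of 3 counts, and the other 3 genes had log2 fold changes of 0.03 to 0.12. Over the 8 mice the mean of those 3 genes had r = 0.734 with Ctsk and 0.981 with Lipa, so it was not particular to Ctsk. Which cells made Ctsk was not tested.

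Spp1 codes for osteopontin, a secreted matrix protein that binds integrins and CD44 and is made by macrophages and by some epithelial cells. It lies on chromosome 5 (104435118 to 104441050) and was the gene that went its own way. The control mice had 143, 113, 59.2 and 61.6 CPM and the anti-BAFF mice 409, 94.6, 73.7 and 69.8 CPM. Anti-BAFF mouse 5 was above all other mice, and the 3 other anti-BAFF mice lay inside the range of the controls. The log2 fold change of 0.78 had an SE of 0.60 and an interval of -0.57 to 2.13 (edgeR adjusted p = 1), and without anti-BAFF mouse 5 it turned to -0.26 (SE 0.31, edgeR adjusted p = 1). The anti-BAFF mean was 161.8 ± 165.3 CPM (SD, n = 4) with this mouse and 79.4 ± 13.3 CPM (SD, n = 3) without it.

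The same mouse had the highest neutrophil list, with a mean log2 CPM of 4.55 against 1.59 to 2.56 in the other 7 mice. Of the 6 neutrophil genes tested, S100a9, named here because it was the 1 gene of that list at an unadjusted p of 0.05, was at 2.05 ± 1.53 CPM with control Ab and 12.5 ± 19.9 CPM with anti-BAFF Ab (SD, n = 4 per group, edgeR adjusted p = 1). Of the 6 genes, 5 had a log2 fold change above 0, while Retnlg went the other way (-1.47, SE 0.73). Mmp9 and Csf3r, the most abundant of the list, had 0.37 (SE 0.43) and 0.53 (SE 0.34). These neutrophil fold changes are given only with anti-BAFF mouse 5 kept. Ly6g, the defining surface marker, averaged 0.031 and 0.117 CPM, below 3 counts. Mouse 5 also had the highest general macrophage list (8.49 against 8.02 to 8.38) and the highest monocyte list (6.15 against 5.52 to 5.89), while the 8 members other than Spp1 and Fabp5 were lowest of the anti-BAFF mice in it. Over the 8 mice, Spp1 had r = 0.958 and rho = 0.833 with the neutrophil list, and r = 0.612 without the 2 mice farthest from the median of that list, control mouse 1 and anti-BAFF mouse 5. These points share library and depth, and the part of neutrophils in the Spp1 value was not tested.

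The other members mostly varied together over the 8 mice, but not among all mice of a group. From control mouse 2 to 6 to 9, Trem2 fell (303, 291 and 275 CPM), while Itgax rose (336, 394 and 414 CPM). Control mouse 1 was the highest control mouse for 10 of 10 genes and the highest of all 8 mice for 8 of 10, and anti-BAFF mouse 7 was highest of its group for 7. Summed over the 10 genes, control mouse 1 had 14230 CPM (1.42% of its counts), while the other control mice had 8310 to 8574 CPM and the anti-BAFF mice 9018, 11540, 9978 and 10360 CPM. The SD of log2 CPM was larger with control Ab for 9 of 10 genes, as for 67.9% of all genes tested. When control mouse 1 was left out it was larger for 1 of 10 genes and for 42.7% of all genes.

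**Figure D2:**
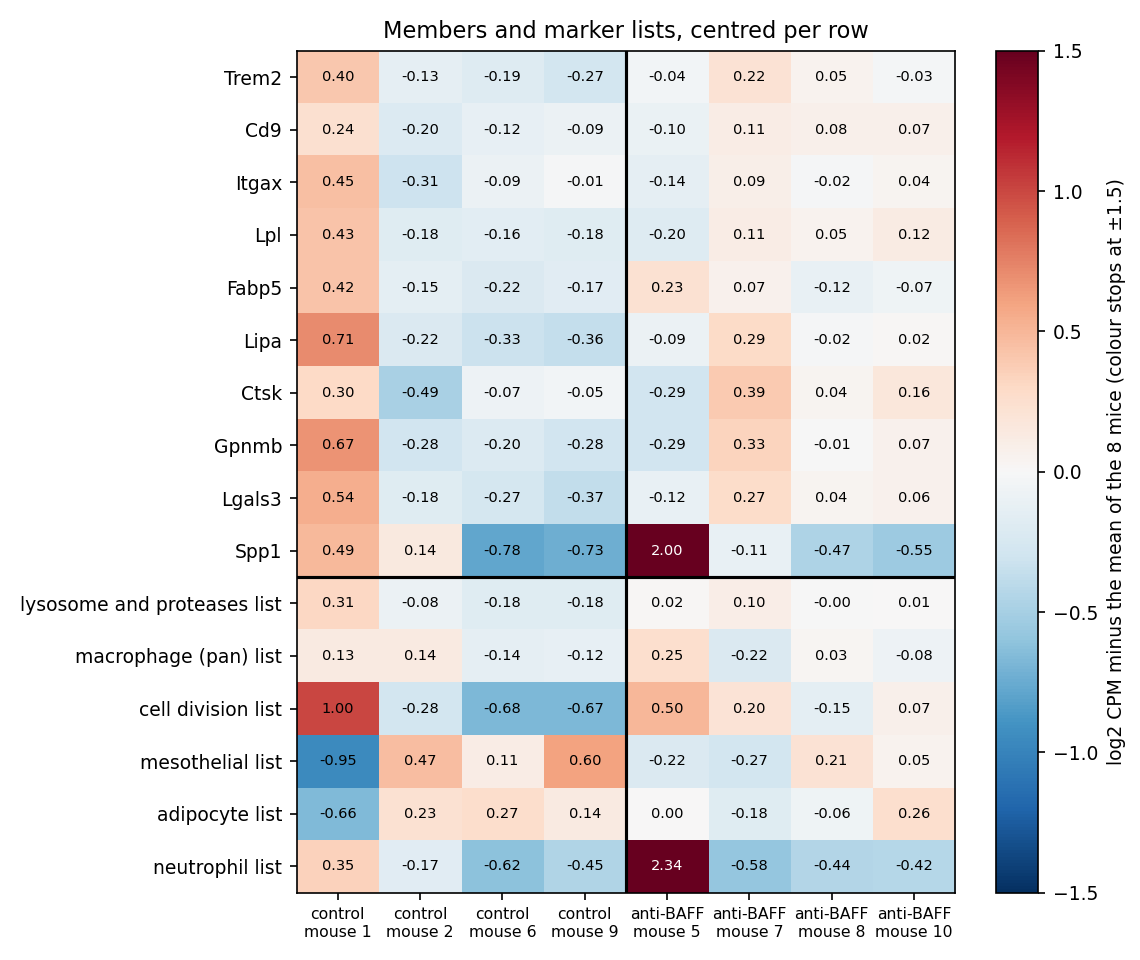
Log2 CPM of each gene, and mean log2 CPM of 6 gene lists, minus the mean of the 8 mice, by mouse. Red is above and blue below that mean. Control mouse 1 is above 0 for all 10 genes (0.24 for Cd9 to 0.71 for Lipa) and at -0.95 for the mesothelial list, while anti-BAFF mouse 5 is at 2.00 for Spp1 and 2.34 for the neutrophil list.

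Other RNA moved with control mouse 1. Its cell division list was highest of the 8 mice (mean log2 CPM 5.07, against 3.40 to 4.58), as was its lysosome list (9.26, against 8.77 to 9.05). Its mesothelial list summed to 267 CPM over 7 genes, against 421.5 to 775.9 CPM in the other mice, and its endothelial list to 773 CPM, against 827 to 1369 CPM. Its general macrophage list, in contrast, was at 8.37 and so within the range of the other mice (8.02 to 8.49) as a mean log2 value, although its sum of 13730 CPM was the highest (9217 to 11790 CPM in the others). How far the make-up of this sample set the member values was not tested.

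Control mouse 1 was the highest control mouse for all 10 genes, so leaving it out had to raise their log2 fold changes. When control mouse 2, 6 or 9 was left out instead, 5, 5 and 3 of the 10 genes were above 0. Without control mouse 1, each of the 10 genes had a log2 fold change above 0, with a median of 0.25 over the 10 genes and -0.01 over all genes tested. All 4 anti-BAFF mice were then above all 3 control mice for Trem2, Fabp5, Lipa and Lgals3, which is 4 of 10 genes, while 7.43% of the 16261 genes tested in that fit had this order. Lipa (log2 fold change 0.34, SE 0.10), Lgals3 (0.33, SE 0.10) and Trem2 (0.23, SE 0.08) were below an unadjusted p of 0.05, as 5.33% of all genes were in this direction, and their edgeR adjusted p-values were 0.350, 0.364 and 0.404. None of the 10 genes was called in this fit. The cell division list (mean log2 CPM 3.93 to 4.58 with anti-BAFF Ab, 3.40 to 3.80 in the 3 control mice) and the lysosome list (8.95 to 9.05, against 8.77 to 8.86) had the same order, and their part in these differences was not tested. Because these genes followed each other across mice, the 3 low p-values are not separate findings. The choice of control mouse 1 also favoured this order and low p-values for the 10 genes. It was the highest of all 8 mice for 8 of them, against 26.7% of all genes tested. The shares of 7.43% and 5.33% are therefore not a like background, and no excess of members is read from them.

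**Figure D3:**
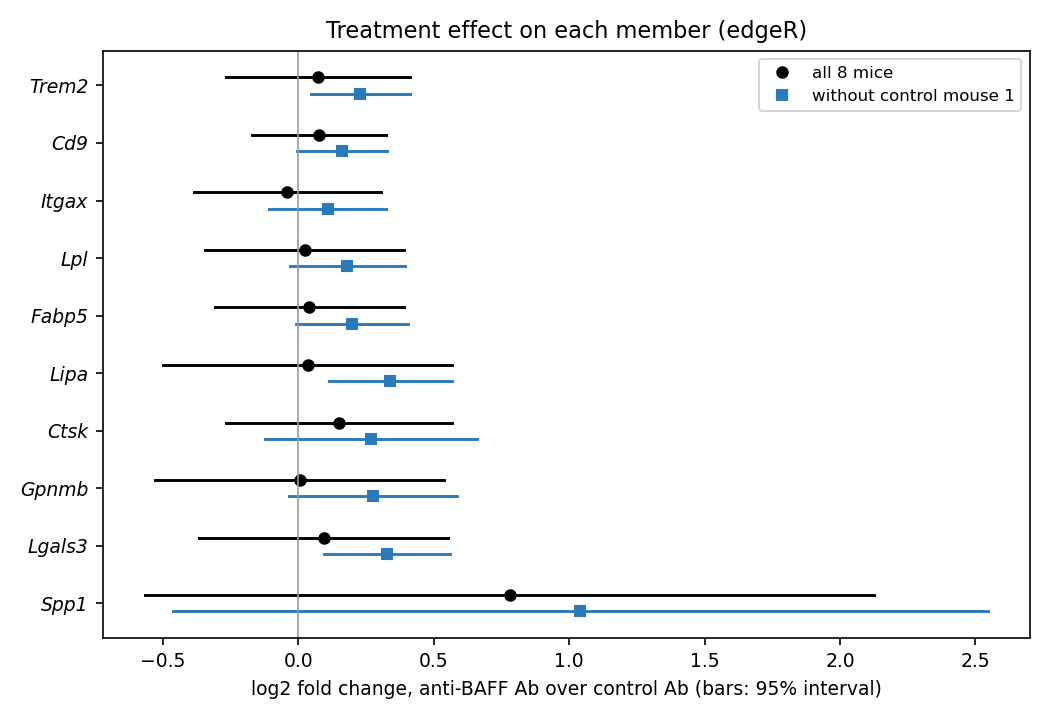
Log2 fold change of each gene, anti-BAFF Ab over control Ab, with its 95% interval from edgeR, over all 8 mice (black circles) and without control mouse 1 (blue squares). All 10 black intervals include 0, and the blue intervals of Trem2, Lipa and Lgals3 do not, although their adjusted p-values were 0.350 to 0.404.

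The direction went the other way when the pair of mice with the most epididymis RNA, control mouse 2 and anti-BAFF mouse 7, was left out. With 3 mice a group, 9 of 10 log2 fold changes were then below 0, among them Gpnmb at -0.21, Lipa at -0.14 and Trem2 at -0.04, and Spp1 alone was above 0. Anti-BAFF mouse 7 was highest of its group for 7 genes, and control mouse 2 lowest of its group for 3. With all mice kept and the epididymis list as a covariate, 8 of 10 genes were above 0, with a median of 0.06. The part of epididymis RNA in the turn was not tested. Members were called 0 times under each of the 19 alternatives run. When 1 mouse was left out at a time, Cd9 (0.02 to 0.16) and Ctsk (0.02 to 0.27) stayed above 0, while the other 8 members changed sign at least once.

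Set against general macrophage RNA, no member passed the test between the treatments either. For each mouse, the mean log2 CPM of the 12 genes of the general macrophage list was subtracted from the log2 CPM of the member. That mean weighs all 12 genes equally, and Ptprc among them is also made by other leukocytes. The difference is therefore not a share of macrophage RNA. The general list itself was at 8.25 ± 0.15 in the control mice and 8.24 ± 0.20 in the anti-BAFF mice (SD, n = 4 per group, two-sided exact permutation p = 1.0). The differences between groups ran from -0.01 for Itgax to 0.45 for Spp1, and two-sided exact permutation p-values from 0.543 to 0.971, where 0.0286 is the smallest that 4 against 4 mice can give. On this scale anti-BAFF mouse 7, with the lowest general list (8.02), was highest for 6 genes, and control mouse 1 for Fabp5, Lipa and Itgax. Over the 8 mice, r with the general list ran from -0.545 for Ctsk to 0.784 for Spp1, with Fabp5 at 0.505, Lipa at 0.157, Lpl at -0.0219 and Gpnmb at -0.106. Without the 2 mice farthest from the median of the general list, anti-BAFF mice 5 and 7, these became -0.153, 0.929, 0.587, 0.605, 0.451 and 0.465. With the lysosome list r was 0.984 for Lipa, 0.879 for Lpl and 0.890 for Gpnmb, and 0.941, 0.617 and 0.672 without the 2 mice farthest in that list, control mice 1 and 9.

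Between pairs of members, the log2 CPM over the 8 mice had a median r of 0.825 (45 pairs, median rho 0.786). For the 36 pairs without Spp1 the median r was 0.881 (0.356 to 0.988), for deviations from the group means 0.878, and without the 2 mice farthest from the median of the first gene 0.799. Lipa and Lgals3 were the closest pair (r = 0.988, rho = 1.0, and r = 0.977 without the 2 farthest mice), followed by Trem2 with Lgals3 (0.987) and with Lipa (0.983). Fabp5 and Ctsk had the lowest r of the pairs without Spp1 (0.356, but 0.707 without the 2 farthest mice), while Gpnmb with Fabp5 went from 0.671 to -0.147 without its 2 farthest mice. The 9 pairs with Spp1 had a median r of -0.0028, from -0.298 with Ctsk to 0.711 with Fabp5. Without control mouse 1 the median over the 45 pairs was 0.721, and without anti-BAFF mouse 5 it was 0.887. These values describe 8 libraries that share depth and cell make-up.

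**Figure D4:**
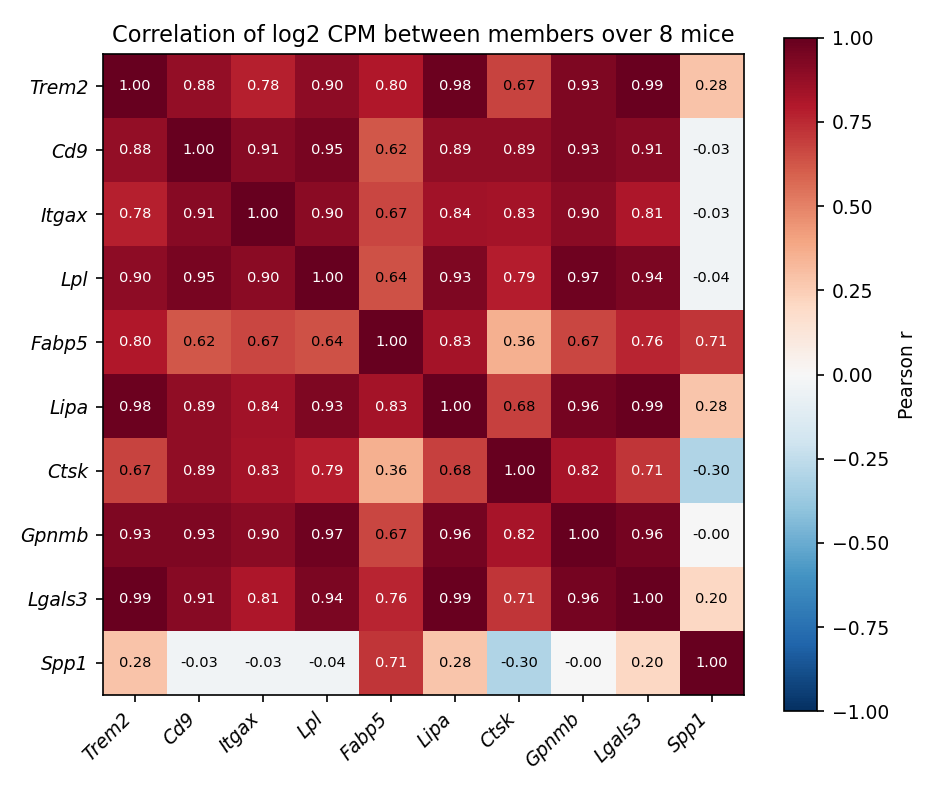
Pearson r of log2 CPM between each 2 of the 10 genes over the 8 mice. Red is positive and blue negative. The block of 9 genes other than Spp1 runs from 0.356 (Fabp5 with Ctsk) to 0.988 (Lipa with Lgals3), and the row of Spp1 is near 0 or below for 5 genes.

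The pattern was shared by many other genes. The genes outside the lists with the highest r to the mean of the members were Pfkfb4 (0.995), an enzyme that sets the pace of glycolysis, the proteasome subunits Psmd2 (0.994) and Psma1 (0.992), Alas1 (0.994), the first enzyme of heme synthesis, Pigk (0.993), Syne3 (0.991), the replication helicase subunit Mcm6 (0.990) and the cell cycle factor Foxm1 (0.990). Of 11373 genes with a mean of at least 5 CPM, 804 (7.07%) had an r of at least 0.9, so closeness to these members was not rare. For single members the nearest genes were Slc39a11 for Trem2 (0.991), Ubash3b for Cd9 (0.989), Ptgir for Itgax (0.979), Cdk18 for Lpl (0.985), Aspm for Fabp5 (0.996), Card19 for Lipa (0.997), Tmem186 for Ctsk (0.964), Cd300lb for Gpnmb (0.995), Kcnn4 for Lgals3 (0.990) and Kif3a for Spp1 (0.990). Fabp5 followed the cell division list most closely of the members (r = 0.963, rho = 1.0, and 0.910 without the 2 farthest mice), and Ctsk least closely (r = 0.384).

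None of the genes around the members passed the test between the treatments. Of 10 genes of TREM2 signalling, 0 passed an unadjusted p of 0.05 in either direction, and the median log2 fold change was -0.02. Tyrobp, the adaptor, was at 294.8 ± 91.8 and 295.8 ± 13.6 CPM (SD, n = 4 per group), and Syk at 371.3 ± 78.2 and 385.6 ± 8.5 CPM. Apoe, a lipid carrier and TREM2 ligand, was at 5027 ± 951 and 4675 ± 311 CPM (log2 fold change -0.10, SE 0.15). Clu, another lipoprotein bound by TREM2, had -0.49 (SE 0.62), and Spi1, which codes for the myeloid factor PU.1, had 0.09 (SE 0.17).

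Of 16 genes of macrophage lipid handling, 0 passed an unadjusted p of 0.05, with 11 above 0 and a median of 0.07. Nr1h3, which codes for the sterol-sensing receptor LXR alpha, had the lowest p of the list (log2 fold change 0.17, SE 0.10, edgeR adjusted p = 1). Pparg, a fatty acid-sensing nuclear receptor, had -0.10 (SE 0.09), Apoc1, an apolipoprotein at 1.35 and 0.854 CPM, had -0.65 (SE 0.61), and Cd36, the fatty acid and scavenger receptor, was at 2854 ± 698 and 3070 ± 316 CPM (SD, n = 4 per group).

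Lysosomal genes and proteases numbered 22, of which 20 were above 0 and 0 passed an unadjusted p of 0.05, with a median of 0.04. Of all 15963 genes tested, 8214 were above 0. The 22 genes were read in the same 8 libraries, so their signs are not independent. Mitf, a factor that drives lysosomal genes and Gpnmb, had 0.10 (SE 0.09), its relative Tfe3 0.06 (SE 0.08), and Cd68, a lysosomal membrane protein of macrophages, 0.13 (SE 0.14). Psap, the precursor of lipid-degrading cofactors, was at 8381 ± 2578 and 8055 ± 401 CPM (SD, n = 4 per group). Another 13 genes of foamy macrophages had a median of 0.06, with 0 past an unadjusted p of 0.05. Il1rn, the decoy ligand of the interleukin-1 receptor, had 0.23 (SE 0.16), Anxa5, which binds phosphatidylserine, 0.09 (SE 0.10), and Mcoln3, an endosomal channel, -0.42 (SE 0.38). Mmp12, the macrophage elastase, was at 1471 ± 975 and 1413 ± 285 CPM (SD, n = 4 per group), again with the wider spread among the control mice.

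Per length, Lgals3 was the most abundant of the 10 genes, and Fabp5 had the lowest mean. Mean FPKM over the 8 mice (counts scaled by library size and by the deposited gene length) was 989.9 for Lgals3, 401.3 for Gpnmb, 293.7 for Ctsk, 286.5 for Lipa, 284.9 for Lpl, 126.4 for Cd9, 87.9 for Itgax, 77.7 for Spp1, 67.8 for Trem2 and 50.8 for Fabp5. Lgals3 was above Gpnmb in 8 of 8 mice, and so was Lpl above Cd9, with ranges that did not meet. Ctsk, Lipa and Lpl could not be ordered: Ctsk was above Lipa in 5 of 8 mice and Lipa above Lpl in 3 of 8. Spp1 was above Trem2 in 2 of 8 mice and below Fabp5 in 4 of 8, so it could not be ordered against either. The deposited length was 87.9% of the gene span for Fabp5 (3567 of 4060 bases) and 63.8% for Trem2 (4946 of 7747 bases), against 5.92% for Cd9, and how it was defined is not given in the sources used here. Counted on a shorter length, the FPKM of both would be higher.

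**Figure D5:**
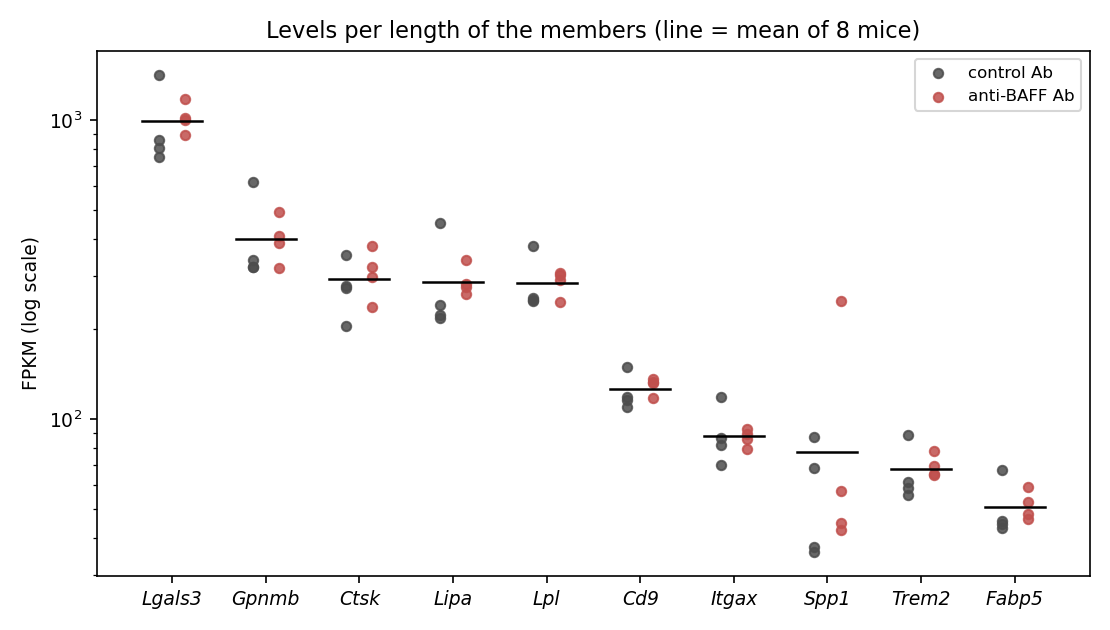
FPKM of each gene in each mouse on a log axis, ordered by the mean of the 8 mice (line), with control Ab mice in grey and anti-BAFF Ab mice in red. Lgals3 (mean 989.9) stands clear of Gpnmb (401.3), the values of Ctsk, Lipa and Lpl lie over each other, and Spp1 has 1 mouse far above the rest.

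Promoter sequences were available in the reference tables used for 8 of the 10 genes, in 9 windows from 250 bases before to 50 bases after an annotated start (RefSeq, GRCm38.p6, the assembly of mm10). They were searched on both strands for 8 short motifs of factors known in macrophages and of the core promoter. The AP-1 letters TGANTCA were in 3 of 9 windows (Trem2, Itgax and Gpnmb) and in 7.81% of all 32851 promoter windows. The C/EBP letters TTGCNNAA were in 3 (Trem2, Ctsk and the second window of Spp1; 10.8% of all windows), and the PU.1 letters GAGGAAGT in 1 (the first window of Spp1; 3.2%). The E-box CACGTG, read by the MITF and TFE factors, was in 0 of 9 windows (7.15% of all) and the related CATGTG in 1 (Cd9; 14.2%). The GC box GGGCGG was in 3 (Cd9, Lgals3 and Lipa; 35.7%), TATAAA in 2 (Spp1 and Lipa; 13.6%) and the nuclear receptor element AGGTCA in 1 (Trem2; 16.3%). The 3 windows with the AP-1 letters, and the first of Spp1 as the member that stood apart across mice, are printed on the strand of the gene, with every searched motif found in capitals. In Trem2 these are AGGTCA in reverse at -68 from the start, AP-1 at -9 and C/EBP at 23, in Itgax AP-1 at -56, in Gpnmb AP-1 at 9, and in Spp1 TATAAA at -211 and PU.1 at -113, each counted to its first base.
Trem2, chr17:48346151-48346450, + strand: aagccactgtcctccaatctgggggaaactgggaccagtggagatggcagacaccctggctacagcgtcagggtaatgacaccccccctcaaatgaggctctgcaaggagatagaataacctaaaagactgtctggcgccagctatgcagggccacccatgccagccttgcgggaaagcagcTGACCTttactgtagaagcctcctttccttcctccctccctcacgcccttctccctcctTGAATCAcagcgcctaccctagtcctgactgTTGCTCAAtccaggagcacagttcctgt
Itgax, chr7:128129300-128129599, + strand: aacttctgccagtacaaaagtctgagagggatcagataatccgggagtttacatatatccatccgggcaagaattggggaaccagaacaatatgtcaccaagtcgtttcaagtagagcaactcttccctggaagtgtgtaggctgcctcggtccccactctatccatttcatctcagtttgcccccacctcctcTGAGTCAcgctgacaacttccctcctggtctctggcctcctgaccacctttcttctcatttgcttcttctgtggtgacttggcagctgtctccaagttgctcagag
Gpnmb, chr6:49036268-49036567, + strand: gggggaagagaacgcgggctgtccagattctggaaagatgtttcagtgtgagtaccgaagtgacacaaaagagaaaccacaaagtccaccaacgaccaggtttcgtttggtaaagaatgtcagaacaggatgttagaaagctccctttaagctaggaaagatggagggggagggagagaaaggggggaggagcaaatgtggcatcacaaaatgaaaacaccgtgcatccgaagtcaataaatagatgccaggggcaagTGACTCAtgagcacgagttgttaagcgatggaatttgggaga
Spp1, chr5:104434861-104435160, + strand: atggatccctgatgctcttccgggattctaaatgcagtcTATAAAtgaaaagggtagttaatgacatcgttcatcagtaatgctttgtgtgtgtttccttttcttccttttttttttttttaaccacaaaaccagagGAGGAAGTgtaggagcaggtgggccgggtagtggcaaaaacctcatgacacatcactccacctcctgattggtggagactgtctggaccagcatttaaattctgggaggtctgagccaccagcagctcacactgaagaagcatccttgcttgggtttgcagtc
These letters are a description of the windows, and binding was not measured here.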

How the data were processed

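Bulk RNA-seq data of gonadal WAT SVF from 8 mice were used, with group and mouse number read from the sample labels. The numbers differ between the groups and pair no mice. Sequencing by the authors was paired-end on a NovaSeq 6000, and they deposited 1 table of raw counts per gene, with a column per mouse, gene coordinates and an other value, the gene length in bases. The build was mm10 per the submitters' processing notes, and the aligner, the counting tool and the annotation release are not given in the sources used here. Without the counting tool it is also unknown whether reads were assigned by strand or shared between overlapping genes.

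For the test, the deposited counts went into edgeR 4.0.16 (R 4.3.3, filterByExpr minimum count 10, TMM, glmQLFit and glmQLFTest, treatment only), with Benjamini-Hochberg adjustment over 15963 genes. No test tool is named in the methods, which give FPKM and the adjusted p threshold of 0.05. Standard errors came from the F statistic and 95% intervals from its degrees of freedom (3.14 prior degrees). Log2 CPM used a prior count of 2. FPKM was computed from TMM-scaled libraries and the deposited gene length. Two-sided exact permutation tests of list scores, and of members relative to macrophage genes, were run in Python 3.11.15 with scipy 1.17.1. Alternatives were RLE, upper quartile and library size scaling, 2 other filters, the robust option, DESeq2 1.42.0, limma 3.58.1 on log2(FPKM + 1) with a pseudocount of 1, macrophage or epididymis list scores as covariates, leaving out each mouse, and leaving out mice 2 and 7 together. Those for correlations between members were chosen after seeing the data. In 3 simulations with 200 genes changed by a log2 fold change of 2 in either direction, this comparison's edgeR step recovered a median of 87.5% of them with 4.97% false calls, DESeq2 90.5% with 19.8%, and limma 86.0% with 4.76%. These rates hold for changes of that size, with no outlying mouse simulated, and say nothing on changes as small as those of most members. No 2 replicates were a repeated library (smallest chi-square per degree of freedom 7.32). Each mouse is 1 library, so p-values rest on the spread between mice.

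The 10 genes, the gene lists and the marker lists were chosen with earlier results of these data known. All 10 genes are named with every mouse's value. Of each pathway list the text names the 3 genes with the lowest p and the most abundant one, of each marker list up to 2 of the most abundant and any at 0, and the genes most like the members. Tyrobp, Syk, S100a9, Retnlg, Ly6g and Calcr were named after their values were seen.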

Additional observations from a re-analysis of the deposited data

Results flagged for a closer look

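Single mice stood far from the other 3 of their group in 9 of the 54 groups of 4 mice examined, where chance gives about 2.7. Control mouse 1 was far above the other control mice for Gpnmb (4038 CPM), Lpl (3976 CPM), Fabp5 (240.6 CPM), Lipa (1347 CPM) and Lgals3 (2636 CPM), and for the mean log2 CPM of the osteoclast list (5.25), and it was far below them for the adipocyte list (2.15). Anti-BAFF mouse 5 was far above the other anti-BAFF mice for Spp1 (409.2 CPM) and for the neutrophil list (mean log2 CPM 4.55). These flags are not independent, since the 5 genes followed each other across mice. What set these 2 mice apart was not tested.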

How the results depend on the processing

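None of the 10 genes was called under any alternative run. The median log2 fold change over the 10 genes was 0.057 and ran from -0.061 without mice 2 and 7 to 0.25 without control mouse 1. Without control mouse 1 the medians of the lysosome list (0.036 to 0.16), the foamy list (0.063 to 0.18), lipid handling (0.069 to 0.12) and TREM2 signalling (-0.015 to 0.11) also moved up. Over the whole table, the count of genes called moved from 9 to 19 without a filter, 2 with the robust option, 70 with DESeq2, 2 with the macrophage list as covariate and 3 without mice 2 and 7, and to 2 to 9 when 1 mouse was left out. Directions were unstable. The log2 fold change of Gpnmb, near 0, turned to -0.0026 with RLE, -0.017 with upper quartile, -0.0043 with library size, -0.013 without a filter, -0.0060 with at least 10 counts in every mouse, -0.0019 with DESeq2, and -0.0023 and -0.0036 with the macrophage and epididymis lists as covariates. Without mice 2 and 7, Trem2 turned to -0.036, Cd9 to -0.017, Gpnmb to -0.21, Lpl to -0.076, Fabp5 to -0.032, Lipa to -0.14, Lgals3 to -0.046 and Ctsk to -0.10. Relative to macrophage genes the same exclusion gave -0.098 for Trem2, -0.10 for Cd9, -0.25 for Gpnmb, -0.15 for Lpl, -0.10 for Fabp5, -0.14 for Lipa, -0.082 for Lgals3 and -0.19 for Ctsk. Leaving out 1 mouse at a time, log2 fold changes ran from -0.00013 to 0.23 for Trem2, -0.26 to 1.04 for Spp1, -0.12 to 0.28 for Gpnmb, -0.032 to 0.18 for Lpl, -0.047 to 0.20 for Fabp5, -0.073 to 0.34 for Lipa, -0.0058 to 0.33 for Lgals3 and -0.14 to 0.11 for Itgax. Relative to macrophage genes they ran from -0.026 to 0.22 for Trem2, -0.0065 to 0.22 for Cd9, -0.064 to 0.69 for Spp1, -0.12 to 0.24 for Gpnmb, -0.050 to 0.21 for Lpl, -0.019 to 0.17 for Fabp5, -0.043 to 0.32 for Lipa, -0.16 to 0.12 for Itgax and -0.018 to 0.37 for Ctsk. The cause of these turns was not tested beyond the mice named. Library size scaling cannot change the order of levels within a mouse, and the gene length was not varied. No paired analysis was possible because the groups share no mouse numbers. With 4 mice a group, changes that lie within the intervals given are not excluded. A call needs more than an interval without 0. Without control mouse 1 the interval of Lipa was 0.11 to 0.57, and its edgeR adjusted p was 0.350.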

Other observations

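Resident macrophages of fat, a different population known by Lyve1, Timd4, Folr2 and related genes, had a list level that ran against most of the members. The list of 8 genes, F13a1 and Gas6 the most abundant, was lowest in anti-BAFF mouse 7 (mean log2 CPM 5.86) and control mouse 1 (5.94), the mice in which most members were highest, and was at 6.20 to 6.62 in the other 6 mice. Over the 8 mice its r was -0.767 with Gpnmb and -0.742 with Trem2. Without mice 1 and 7 these became 0.037 and 0.0663, so the relation rests on that pair. Between the treatments the list differed by -0.01 (two-sided exact permutation p = 0.971).

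The fibroblast and progenitor list of 8 genes, with Col3a1 and Dcn the most abundant, differed by 0.10 between the treatments (exact permutation p = 0.543), and the mesothelial list of 7 genes, led by Upk3b and Wt1, by -0.11 (exact permutation p = 0.771). The endothelial list of 7 genes, led by Cdh5 and Pecam1, differed by -0.02 (exact permutation p = 0.971), the monocyte list of 8 genes, led by Nr4a1 and Ace, by 0.06 (exact permutation p = 0.743), and the cell division list of 6 genes, led by Mki67 and Top2a, by 0.31 (exact permutation p = 0.486).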
